A study of Homo sapiens with 8 samples.

Results

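The line labelled 549 is an established human cell line of lung cancer origin, and its response to IFN-gamma was read from 1 RNA sequencing library per arm. The treated arm received human recombinant IFN-gamma at 20 ng/ml, the untreated arm received none, and the labels give 72 h for both. Both arms grew in RPMI medium with serum and antibiotics, as did A375 (melanoma), A498 (kidney cancer) and H1703 (lung cancer), which gave 1 treated and 1 untreated library each under the same conditions. The 549 pair is therefore 2 of 8 libraries. The labels name no repeat culture of 549, so its values have no replicate check and carry no p-value. A gene counted as measured when the 2 libraries together held at least 50 counts, which 11818 of the 24462 gene symbols did. Values below are raw counts, then the ratio of normalised counts in CPM, treated over untreated, after TMM scaling of library size. The exact 95% interval of a ratio describes these 2 libraries and covers counting error only. A log2 ratio of at least 1 or at most -1, computed with a prior count of 2, is called past 2-fold.

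IFN-gamma is a cytokine of T cells and natural killer cells. It binds the receptor chains IFNGR1 and IFNGR2, and the kinases JAK1 and JAK2 on those chains then activate transcription factors of the STAT family. STAT dimers bind a palindromic promoter element called GAS, and among the first genes they switch on is the transcription factor IRF1, which binds the related element called ISRE. In tumour cells the pathway is known for raising antigen presentation by class I molecules, for swapping catalytic subunits of the proteasome, for switching on antiviral and guanylate-binding proteins, and for slowing growth.

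Upstream stretches of 70 bases are shown for 7 genes on which the 549 results turn, to place these elements beside the counts. They were chosen after their values were seen and come from RefSeq (GRCh38.p14), whereas the counts were made on another build. Capitals mark a match to GAS, searched as TTCNNNGAA, or to ISRE, searched as GAAANNGAAA, on both strands within 250 bases upstream of the gene start. In IRF1 and OAS1 the capitals are a GAS match, and in the other genes they are ISRE matches, of which those of ISG15, TAP1 and B2M are overlapping pairs. Each sequence is printed 5′ to 3′ on the strand of its gene.
IRF1, chr5:132490859-132490928, minus strand: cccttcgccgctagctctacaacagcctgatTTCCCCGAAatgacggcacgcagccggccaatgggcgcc
GBP1, chr1:89065296-89065365, minus strand: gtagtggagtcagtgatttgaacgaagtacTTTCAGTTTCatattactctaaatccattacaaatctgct
IFIT3, chr10:89327828-89327897, plus strand: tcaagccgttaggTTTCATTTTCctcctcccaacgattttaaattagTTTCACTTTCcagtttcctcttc
ISG15, chr1:1013357-1013426, plus strand: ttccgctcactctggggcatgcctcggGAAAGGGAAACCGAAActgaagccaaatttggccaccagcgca
TAP1, chr6:32853796-32853865, minus strand: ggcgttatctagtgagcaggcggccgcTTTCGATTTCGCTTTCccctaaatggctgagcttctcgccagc
B2M, chr15:44711346-44711415, plus strand: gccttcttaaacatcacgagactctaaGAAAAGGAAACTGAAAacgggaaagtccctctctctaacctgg
OAS1, chr12:112906763-112906832, plus strand: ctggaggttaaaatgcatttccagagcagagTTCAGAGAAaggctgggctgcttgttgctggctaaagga

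Of 27305 RefSeq promoters searched in the same way, 1850 (6.78%) held a GAS match and 839 (3.07%) an ISRE match. A match of these letters is a description of the sequence and not evidence that a factor binds there. Promoters could be found for 79.3% of the measured genes, which is under 80%, so the shares of matches in the responding genes were not compared.

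The treated 549 library held 6559933 counts and the untreated one 6991610, against 6750962 to 9291154 in the other 6 libraries, and 3 counts correspond to 0.47 CPM in treated and 0.429 CPM in untreated 549. Of the epithelial markers, the keratins KRT8 (8930 treated and 11999 untreated counts), KRT18 (15835 and 21402) and KRT7 (8003 and 5484) were abundant, and CDH1 had 583 and 850. EPCAM was far lower than these, and KRT19, CLDN4, ESRP1, GRHL2 and MUC1 were under the minimum for measurement. Of 18 epithelial state genes, 13 were measured. Most genes that define alveolar cells were absent or nearly so. SFTPA1, SFTPA2 and AQP5 had 0 counts in both libraries, SFTPB, SFTPC, SFTPD and NKX2-1 at most 2, and NAPSA 3 treated and 5 untreated counts, although the lung and gut endoderm factor FOXA2 had 821 and 1059. Of 15 listed alveolar and lung lineage genes, 4 were measured, among them FOXA2 and ABCA3 (55 treated and 80 untreated counts). The list summed to 2232 treated and 3906 untreated counts. The lung origin thus rests on the label, since most defining genes of lung epithelium were near 0. Markers of other cells were low, with summed counts of 122 treated and 326 untreated over 8 melanocyte genes, 199 and 429 over 8 renal tubule genes, 213 and 141 over 12 leukocyte genes and 9 and 68 over 8 fibroblast and endothelial genes. The leukocyte sum was mostly the lysosomal protein CD68 (193 treated and 99 untreated counts), and PTPRC, CD3E, CD3D, MS4A1, NKG7, GNLY and HBB were at 0 in both libraries. The long noncoding RNA MALAT1 took 2.33% of treated and 1.65% of untreated counts.

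Between treated and untreated 549, 727 of the 11818 measured genes (6.15%) were higher past 2-fold, 977 (8.27%) were lower and 10114 (85.6%) lay within 2-fold. After TMM scaling, which centres the ratios, the median log2 ratio was -0.01 and the quartiles were -0.44 and 0.39. The log2 ratio was above 0 for 5856 of the measured genes and below 0 for 5962. These shares and signs of all measured genes are the background for the lists below. The far ends were about even at a log2 of 2, with 154 genes at or above 2 and 161 at or below -2, and uneven at 3, with 68 genes at or above 3 and 37 at or below -3. Depth sets how firmly a single gene can be read. Of genes with 50 to under 100 counts, 26.3% were past 2-fold, 101 higher and 272 lower, against 10.9% of genes with 1000 to under 10000 counts, 170 higher and 132 lower. The share did not fall throughout, as it was 16.6% of the 163 genes with 10000 counts or more. Only 393 of the higher and 443 of the lower genes had an interval that lay wholly past 2-fold. In these bulk libraries, fewer cells expressing a gene and less of its RNA per cell cannot be told apart.

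**Figure D1:**
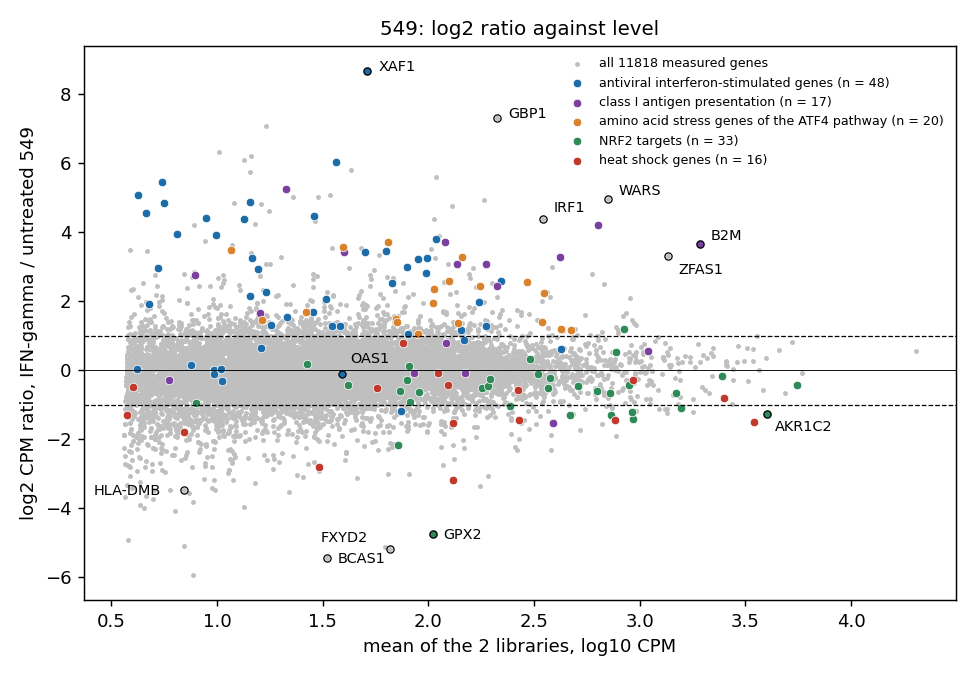
Log2 ratio of treated over untreated 549 for each of the 11818 measured genes (vertical axis) against its mean level in log10 CPM (horizontal axis), with 5 gene lists in colour and dashed lines at 2-fold. The median of all genes is -0.01, while the coloured interferon-related genes run up to 8.65 (XAF1).

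All 5 genes for the receptor chains and JAK kinases were measured and lay within 2-fold. IFNGR1, the ligand-binding chain, had 110 counts in treated and 143 in untreated 549, a ratio of 0.842 (interval 0.651 to 1.09). IFNGR2, the second chain, had 138 treated and 231 untreated counts, a ratio of 0.654 (0.526 to 0.811), and JAK1 had 1007 and 1514, a ratio of 0.728 (0.672 to 0.789). JAK2, itself a target of the pathway, had 95 treated and 58 untreated counts, a ratio of 1.79 (1.28 to 2.53). All 5 genes of this list had a lower log2 ratio in 549 than in any of the other lines, where 24.9% of measured genes do so. For JAK2 the ratios on the log2 scale were 0.82 in 549 against 2.18, 3.12 and 1.27 in A375, A498 and H1703. The difference for JAK2 was not called (edgeR interaction of 549 with the other 3 lines, -1.42 on the log2 scale, adjusted p = 1).

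The transcription factors that carry the signal were higher. Of 16 measured STAT and IRF genes and related regulators, 10 were higher past 2-fold and 0 were lower, with a median log2 ratio of 1.50. IRF1, whose GAS match is printed above, had 4256 counts in treated and 224 in untreated 549, a ratio of 20.8 (interval 18.2 to 23.9). STAT2 had 281 treated and 122 untreated counts.
IRF9, which joins STAT2 in the factor that binds ISRE, had 320 treated and 49 untreated counts, a ratio of 7.15 (5.28 to 9.86). BATF2, an interferon-induced leucine zipper factor, had 286 and 8 counts, a ratio of 39.1 (19.6 to 91.5). NLRC5, the transactivator of class I genes, had 266 and 6 counts, a ratio of 48.5 (22 to 133). STAT3, STAT5B, STAT6, IRF2, IRF3 and IRF5 lay within 2-fold.

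Of the pathway's inhibitors, 1 of 11 measured (9.09%) was higher past 2-fold and 0 were lower, a share near the 6.15% of all measured genes. It was SOCS3, an inhibitor of JAK signalling, with 871 treated and 322 untreated counts, a ratio of 2.96 (2.6 to 3.38). SOCS1, the main inhibitor of IFN-gamma signalling, had 7 treated and 0 untreated counts and is too low to count as measured. USP18, an interferon-induced protease that removes ISG15, had 51 and 50 counts and a ratio of 1.12 (0.741 to 1.68).

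Most genes for class I antigen presentation were higher in treated 549. Of 17 measured, 11 were higher past 2-fold and 1 lower, with a median log2 ratio of 2.75. HLA-B had 7694 treated and 459 untreated counts, a ratio of 18.3 (16.7 to 20.2). B2M, the light chain shared by all class I molecules, had 22697 and 1970 counts, a ratio of 12.6 (12 to 13.2). Reads of HLA genes can be split among near-identical copies, so the single HLA values are uncertain, which does not touch B2M.
TAP1, a subunit of the peptide transporter, had 1428 treated and 118 untreated counts, a ratio of 13.2 (11 to 16.1), and its partner TAP2 had 1561 and 202, a ratio of 8.46 (7.3 to 9.84). The trimming enzymes of the endoplasmic reticulum parted. ERAP2 had 89 and 13 counts, a ratio of 7.49 (4.17 to 14.6), and ERAP1 had 527 and 613, a ratio of 0.941 (0.836 to 1.06). The lower member was the chaperone CALR, with 1274 treated and 4036 untreated counts and a ratio of 0.346 (0.324 to 0.368), while its relative CANX had 8346 and 6180.

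The proteasome genes divided by their known role. All catalytic subunits of the immunoproteasome, which cuts peptides suited to class I molecules, were higher past 2-fold, and 0 of 14 constitutive subunits were past 2-fold in either direction (median log2 ratio 0.26). PSMB8 had 1298 treated and 67 untreated counts, a ratio of 21.2 (16.6 to 27.5). PSMB9 had 2265 and 81 counts, a ratio of 30.6 (24.5 to 38.7), and PSMB10 had 755 and 128, a ratio of 6.46 (5.35 to 7.85). Their constitutive counterparts lay within 2-fold, PSMB5 with 1473 treated and 1561 untreated counts, PSMB6 with 6357 and 5422, and PSMB7 with 1775 and 1425. Of the 14 constitutive subunits, 11 had a log2 ratio above 0.
The activator subunits PSME1 and PSME2 had ratios of 4.01 (3.73 to 4.31) and 5.78 (5.2 to 6.44). UBD, the ubiquitin-like protein FAT10, had 540 treated and 9 untreated counts, a ratio of 65.7 (34.3 to 144). POMP, the chaperone that assembles the proteasome, was the member of the 7 that lay within 2-fold, at 1158 and 1378 counts.

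Class II antigen presentation was mostly below measurement in 549. Only 5 of 16 genes had 50 counts, and 3 had 0 counts in both libraries. CIITA, the master regulator of class II genes, had 8 treated and 0 untreated counts, and HLA-DRA likewise had 8 and 0. CD74, the invariant chain, had 130 treated and 0 untreated counts, which makes it at least 47.4-fold higher against 3 counts in the untreated library. CTSS, the protease that trims the invariant chain, had 350 and 79 counts, a ratio of 4.85 (3.79 to 6.27).
HLA-DMB, a chain of the peptide-loading molecule HLA-DM, was lower, with 6 treated and 91 untreated counts and a ratio of 0.0722 (0.0258 to 0.163). Elsewhere A375 had 184 treated and 70 untreated counts of it, A498 46 and 19, and H1703 11 and 3, so 549 was the line with a ratio below 1. The difference between 549 and those lines was not called by edgeR (interaction -5.19 ± 0.75 on the log2 scale, adjusted p = 0.67) and was called by DESeq2 (0.011, range over the alternatives 0.011 to 1). Its partner HLA-DMA had 17 treated and 27 untreated counts in 549.

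Guanylate-binding proteins, large GTPases that attack intracellular pathogens, gave some of the highest ratios. All 5 measured members were higher past 2-fold, with a median log2 ratio of 4.84. GBP1 had 2688 treated and 17 untreated counts, a ratio of 173 (108 to 298). It shares sequence with its pseudogene GBP1P1, so its value is uncertain to that extent. GBP4 had 150 and 4 counts, a ratio of 41 (15.7 to 153), and GBP3 had 355 and 18, a ratio of 21.6 (13.5 to 36.9). All 4 measured apolipoprotein L genes, which bind lipids and of which APOL1 kills trypanosomes in serum, were higher too. APOL3 had 218 treated and 0 untreated counts, at least 79.5-fold higher, and APOL6 had 1603 and 63, a ratio of 27.9 (21.7 to 36.4).

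Of 60 antiviral interferon-stimulated genes, 48 were measured in 549, of which 37 were higher past 2-fold and 1 was lower (median log2 ratio 2.39). XAF1, an antagonist of the apoptosis inhibitor XIAP, had 658 treated and 0 untreated counts and was at least 240-fold higher. IFIT3, which binds foreign RNA with other IFIT proteins, had 459 and 6 counts, a ratio of 83.7 (38.2 to 229). ISG15, a ubiquitin-like modifier, had 354 and 16 counts, a ratio of 24.2 (14.7 to 42.8). In each of these genes the untreated library held at most 16 counts.
The RNA sensor IFIH1 had 165 treated and 7 untreated counts, a ratio of 25.8 (12.2 to 65.2). BST2, a tether of budding virions, had 70 and 0 counts and was at least 25.5-fold higher. DTX3L and PARP9, partners in a ubiquitin ligase complex, had ratios of 14 (11.4 to 17.3) and 8.06 (6.66 to 9.82). IFITM2, which blocks virus entry, was the lower member, with 292 treated and 720 untreated counts and a ratio of 0.444 (0.386 to 0.509), although its neighbour IFITM3 had 120 and 7.

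The remaining 10 measured antiviral genes lay within 2-fold, and OAS1 stood out among them. OAS1, a sensor of double-stranded RNA that activates RNase L, had 240 treated and 281 untreated counts in 549, a ratio of 0.935 (0.784 to 1.11). Of the same gene, A375 had 187 treated and 19 untreated counts, A498 3071 and 130, and H1703 303 and 8. In those lines it rose by 4.28 ± 0.32 (SE) on the log2 scale (edgeR adjusted p = 0.0023), and the call held without each line in turn. Untreated 549 thus held more OAS1 counts than any other untreated library, and treated 549 did not hold fewer than treated A375.
The difference between 549 and the other 3 lines was -4.37 ± 0.58 on the log2 scale, with an edgeR adjusted p of 0.67, which is not a call. It was a call by DESeq2 (adjusted p = 4.6e-06) and by edgeR without A375 (0.044), and adjusted p ranged up to 1 over the alternatives. Other OAS genes were higher in 549. OASL had 61 treated and 7 untreated counts, a ratio of 9.54 (4.36 to 24.7), OAS3 had 688 and 369, a ratio of 2.04 (1.8 to 2.32), and OAS2 had 26 and 0. HERC5 (60 treated and 82 untreated counts), TRIM5 (59 and 70), TRIM14 (67 and 72), SAMHD1 (27 and 29) and TDRD7 (62 and 68) were the other antiviral genes, beside USP18 and OAS1, with intervals that included a ratio of 1.

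**Figure D2:**
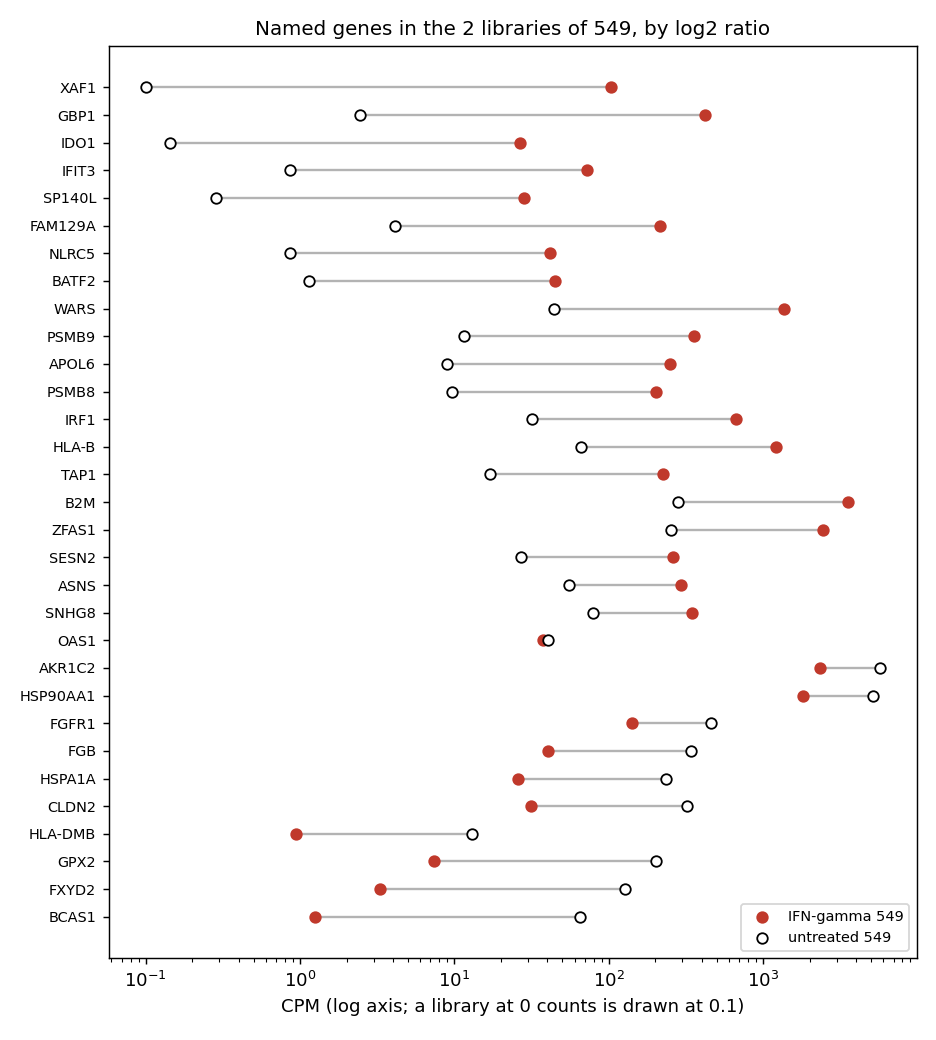
CPM of named genes in treated (red, filled) and untreated (open) 549 on a log axis, with 0 drawn at 0.1. The points of GBP1, XAF1, B2M and WARS lie far apart, those of OAS1 lie together at 37.6 treated and 40.2 untreated CPM, and those of FGB and GPX2 lie the other way round.

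Chemokines that attract T cells hardly appeared in 549. CXCL10 had 5 treated and 0 untreated counts, CXCL9 had 2 and 1, and CXCL11 had 4 and 0. Of 9 measured chemokines, 2 were higher past 2-fold (22.2%, against 6.15% of all measured genes) and 0 were lower. CCL5, a T cell attractant, had 96 treated and 4 untreated counts, a ratio of 26.3 (9.93 to 98.4), and CXCL5, a neutrophil attractant, had 1605 and 697, a ratio of 2.52 (2.3 to 2.76). Over the 9 members measured in 549, the median log2 ratio was 0.68 in 549, against 0.84, 2.53 and 1.46 in A375, A498 and H1703. The medians of all lines thus leave out CXCL9, CXCL10, CXCL11 and CX3CL1.

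Among ligands of immune checkpoints, those of PD-1 were likewise low. CD274, which encodes PD-L1, had 37 treated and 5 untreated counts, under the minimum for measurement, with a ratio of 8.1 (3.18 to 26.4). PDCD1LG2, which encodes PD-L2, had 7 and 0. Of 9 measured members of the checkpoint list, 2 were higher past 2-fold (22.2%, against 6.15% of all measured genes). They were HLA-E, a ligand of natural killer cell receptors, with 2285 treated and 463 untreated counts, and IDO1, an enzyme and not a ligand. LGALS9, a galectin, had 31 treated and 52 untreated counts in 549, a ratio of 0.653 (0.404 to 1.04), against 5974 and 82 in A498.

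Of 14 measured genes of tryptophan and kynurenine metabolism and transport, 5 were higher past 2-fold and 0 were lower. The higher share was 35.7%, against 6.15% of all measured genes. IDO1, the first enzyme of kynurenine synthesis, had 171 treated and 1 untreated count, a ratio of 187 with a wide interval (33.1 to 7.44e+03). WARS, the tryptophanyl-tRNA synthetase, had 8768 and 309 counts, a ratio of 31.1 (27.7 to 34.9). The large neutral amino acid transporter SLC7A5 had 8292 treated and 2900 untreated counts, a ratio of 3.13 (3 to 3.27), and its heavy chain SLC3A2 had 8607 and 3423, a ratio of 2.75 (2.65 to 2.86). The enzymes named here after IDO1 were mixed. AFMID had 286 treated and 176 untreated counts, a ratio of 1.78 (1.47 to 2.16), within 2-fold. KYNU had 1793 and 1829 counts, KMO had 325 and 508, and QPRT had 192 and 394.

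Of 12 measured genes for NF-kB cytokines, adhesion and their regulators, 6 were higher past 2-fold and 0 were lower. The higher share was 50%, against 6.15% of all measured genes. IL32, an inflammatory cytokine, had 564 treated and 52 untreated counts, a ratio of 11.9 (8.93 to 16.1), and CSF1, the macrophage growth factor, had 169 and 45, a ratio of 4.11 (2.94 to 5.85). The NF-kB subunits NFKB2 and RELB had ratios of 3.57 (3.08 to 4.15) and 3.6 (2.86 to 4.56). ICAM1, an adhesion molecule that interferon often induces, had only 12 treated and 5 untreated counts.
Of 11 measured complement genes, 5 were higher (45.5%) and 1 lower (9.09%), against 6.15% and 8.27% of all measured genes. C1R and C1S, the proteases that start the classical pathway, had 1409 treated and 182 untreated counts and 1240 and 142, ratios of 8.47 (7.26 to 9.94) and 9.56 (8.03 to 11.5). C5, the precursor of the membrane attack complex, was lower at 153 and 506 counts.
Of 15 measured cell death effectors, 2 were higher past 2-fold (13.3%, against 6.15% of all measured genes). They were the TRAIL receptor TNFRSF10B (1007 treated and 536 untreated counts) and BAK1 (96 and 44). The list median was 0.35 on the log2 scale. CASP1, the inflammatory caspase, had 27 treated and 0 untreated counts.

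Amino acid stress genes of the ATF4 pathway, which cells switch on when amino acids run short, were higher as a group. Of 20 measured genes, 19 were higher past 2-fold, with a median log2 ratio of 1.82. CHAC1, which degrades glutathione, had 464 treated and 41 untreated counts, a ratio of 12.4 (8.99 to 17.5). STC2, a secreted glycoprotein of stressed cells, had 769 and 62 counts, a ratio of 13.6 (10.5 to 17.9). SESN2, a leucine sensor that restrains mTOR, had 1673 and 190, a ratio of 9.64 (8.29 to 11.3). The transcript of ATF4 itself, which is controlled mainly through translation, had 4184 and 2058 counts, a ratio of 2.23 (2.11 to 2.35).
Genes of serine synthesis on the list were higher as well, with PSAT1 at 3198 treated and 600 untreated counts and PHGDH at 654 and 274. The exception was SLC7A11, the cystine transporter, with 1940 and 3027 counts and a ratio of 0.702 (0.662 to 0.743). The list median was 2.20 for A375, 1.66 for A498 and -0.17 for H1703, the other lung line, where ASNS had 1454 treated and 1531 untreated counts, against 1889 and 385 in 549. Across the other 3 lines edgeR called 1 of 19 tested members higher, NUPR1, a stress-induced chromatin protein (adjusted p = 0.0078, held without each line). The same fit called 1.11% of all tested genes higher. Chaperones of the endoplasmic reticulum mostly lay within 2-fold. Of 14 measured, 0 were higher and 1, CRELD2, was lower (7.14%, against 8.27% of all measured genes). HSPA5 (BiP) had 10295 and 5798 counts, a ratio of 1.94 (1.88 to 2.01).

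Host genes of small nucleolar RNAs, a list drawn up after values were seen, were also higher in treated 549. Their spliced transcripts carry snoRNAs, which guide the modification of ribosomal RNA, in their introns. Of 21 measured, 11 were higher past 2-fold and 3 lower, with a median log2 ratio of 1.18. ZFAS1 had 15708 treated and 1758 untreated counts, a ratio of 9.78 (9.31 to 10.3), and GAS5 had 6614 and 1055, a ratio of 6.86 (6.43 to 7.33). GAS5 overlaps an antisense gene, and without the strand setting of the counting its value is uncertain to that extent.
SNHG8 had 2196 treated and 552 untreated counts in 549, where A375 had 623 and 960, A498 1830 and 1501, and H1703 573 and 499. LRRC75A-AS1 (SNHG29) had 7943 and 2940 counts in 549, against 3533 and 4612, 3155 and 2866, and 2413 and 2911 in the same lines. For both, treated 549 was above untreated 549 by more than 2-fold, while the treated and untreated libraries of the other lines differed by less than 2-fold. The list median was -0.02, 0.31 and -0.08 in A375, A498 and H1703. The interaction was not called by edgeR for SNHG8 (2.22 ± 0.42 on the log2 scale, adjusted p = 1) and was called by DESeq2 (adjusted p = 0.039, range over the alternatives 0.039 to 1).

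Cytosolic ribosomal protein genes, whose products build the ribosome, had small ratios that mostly shared a sign. All 43 were measured and 0 passed 2-fold. The median log2 ratio was 0.21 in 549 with 33 of 43 members above 0, against -0.25, -0.53 and -0.20 in A375, A498 and H1703. In 37 of 43, 549 had the highest ratio of the 4 lines, as it did for 25.3% of measured genes. Their share of counts was 7.12% in treated and 6.14% in untreated 549. Upper quartile scaling left a median of 0.15.

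**Figure D3:**
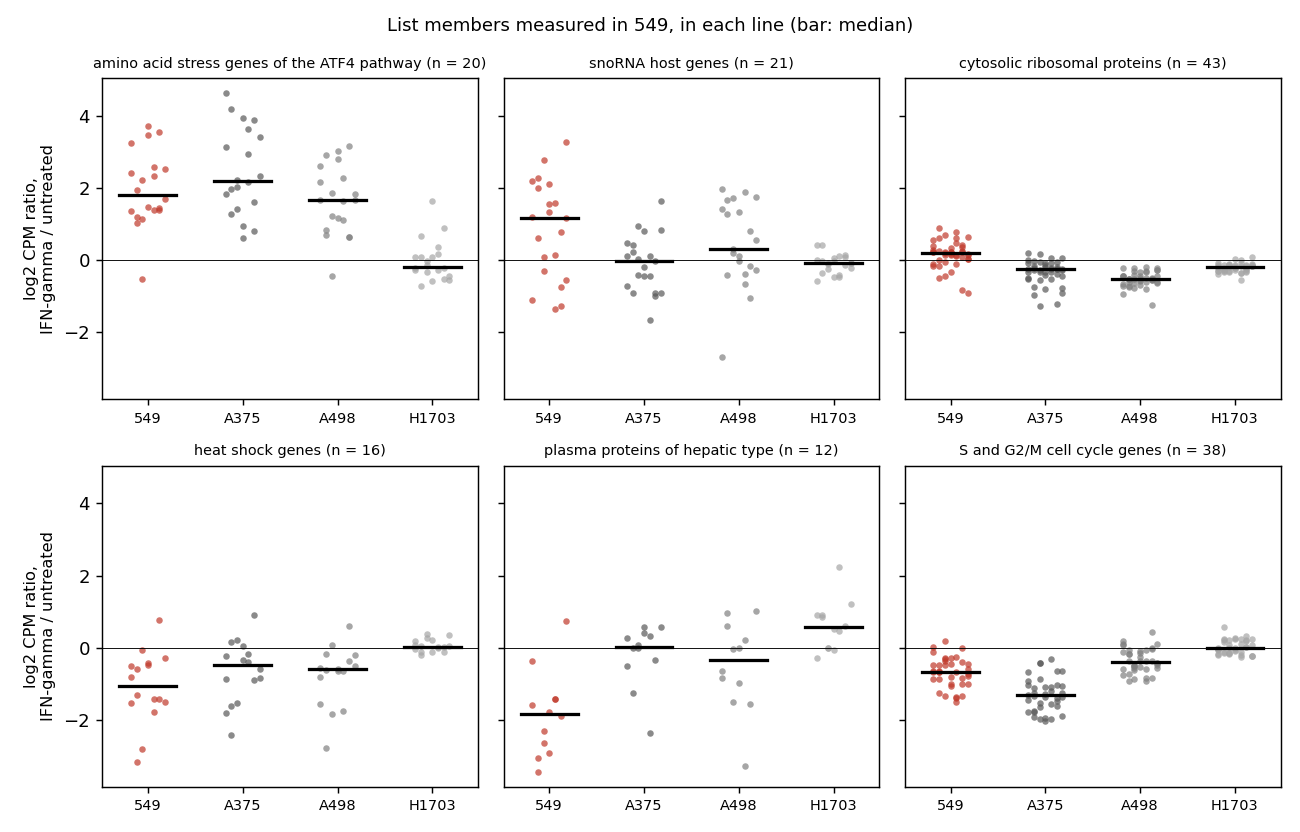
Log2 ratio, treated over untreated, of each member of 6 gene lists that was measured in 549. Points give its ratio in 549, A375, A498 and H1703, with a bar at the median. The snoRNA host and ribosomal lists sit highest in 549 (medians 1.18 and 0.21), and the amino acid stress list is high in 549, A375 and A498 but not in H1703 (1.82, 2.20, 1.66 and -0.17).

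Ranked by ratio among genes with at least 200 counts, the 15 highest in 549 were XAF1, GBP1, APOL3, IFIT3, UBD, FAM129A, NLRC5, RARRES3, BATF2, BEX2, WARS, PSMB9, TXNIP, APOL6 and HCP5. Across the other 3 lines edgeR called 1.04% of the tested genes measured in 549 higher, and it called 12 of these 15. Without H1703, 5 of the calls were lost, with adjusted p of 0.065 for XAF1, 0.091 for IFIT3, 0.065 for BATF2, 0.063 for APOL6 and 0.13 for HCP5. The 3 that were not called were FAM129A, BEX2 and TXNIP. FAM129A (Niban), a stress-responsive protein, had 1362 treated and 29 untreated counts in 549, a ratio of 51.4 (35.6 to 77.1). In the other lines its untreated counts were already 713 to 1582, and A375 had 5400 treated and 713 untreated counts, A498 4252 and 1582, and H1703 1466 and 1256.
BEX2, a small brain-expressed X-linked protein, had 372 treated and 11 untreated counts in 549, a ratio of 37 (20.5 to 74.8). TXNIP, which binds thioredoxin and limits glucose uptake, had 200 and 6, a ratio of 36.5 (16.5 to 101). RARRES3, a retinoid-inducible phospholipase, had 425 and 12, a ratio of 38.8 (22 to 75.6). HCP5, a noncoding RNA gene within the class I region, had 217 and 8, a ratio of 29.7 (14.8 to 69.7). SP140L, a nuclear body protein related to SP100, was just under the minimum of the ranking, with 181 treated and 2 untreated counts in 549, a ratio of 99.1 (27 to 824). It had 635 and 273, 601 and 184, and 729 and 155 counts in A375, A498 and H1703, so untreated 549 stood apart from the other untreated libraries more than treated 549 did from the treated ones.

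On the lower side the 12 lowest ratios belonged to BCAS1, FXYD2, FXYD6-FXYD2, GPX2, ENTPD2, CLDN2, COL11A1, HSPA1A, ARHGAP18, SLC5A11, FGB and NDRG4. BCAS1, a gene first found amplified in breast cancer, had 8 treated and 454 untreated counts, a ratio of 0.0193 (0.00828 to 0.0383). FXYD2, a regulatory subunit of the sodium pump, had 21 and 893, a ratio of 0.0257 (0.0159 to 0.0396), and it shares exons with the readthrough gene FXYD6-FXYD2 (21 and 853), so reads of the pair cannot be told apart. GPX2, an epithelial glutathione peroxidase, had 47 and 1414, a ratio of 0.0364 (0.0266 to 0.0486).
CLDN2, a claudin that forms cation pores in tight junctions, had 201 treated and 2240 untreated counts, a ratio of 0.0982 (0.0846 to 0.114). ARHGAP18, a GTPase-activating protein, had 59 and 579 counts in 549, a ratio of 0.112 (0.0838 to 0.146), where A375 had 216 and 347, A498 258 and 261, and H1703 285 and 203. Only 4 of the 12 had enough counts in the other lines to be tested there, and edgeR called 0 of them (smallest adjusted p = 0.2, for NDRG4), which is little to read where 0.0222% of all genes were called lower.

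Plasma proteins of the kind that liver cells secrete, a list drawn up after values were seen, were lower in treated 549. Of 12 measured, 10 were lower past 2-fold and 0 higher, with a median log2 ratio of -1.85. All chains of fibrinogen, the clotting protein, were lower. FGB had 259 treated and 2388 untreated counts, a ratio of 0.119 (0.104 to 0.135), FGA had 207 and 686, a ratio of 0.33 (0.281 to 0.386), and FGG had 123 and 675, a ratio of 0.199 (0.163 to 0.242). APOH, AHSG, F5 and the ferroxidase CP were lower as well, CP with 854 and 2521 counts. BAAT, an enzyme inside liver cells and not a plasma protein, is also on the list. It is among the 10 lower, with 44 treated and 377 untreated counts. Only 5 of the 12 could be tested across the other lines, since most were near 0 there, FGB with at most 8 counts in any of those 6 libraries.

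Oxidant defence genes driven by NRF2 leaned lower from a high level. Of 33 measured, 9 were lower past 2-fold (27.3%) and 1 higher (3.03%), against 8.27% and 6.15% of all measured genes. The median log2 ratio was -0.51. Of the 9 lower, 4 were aldo-keto reductases, which reduce steroids and aldehydes, and GPX2 was the lowest. AKR1C2 had 14971 treated and 39834 untreated counts, a ratio of 0.411 (0.404 to 0.419), AKR1B10 had 6360 and 14883, a ratio of 0.468 (0.454 to 0.482), and AKR1C3 had 3549 and 9012, a ratio of 0.431 (0.415 to 0.448). AKR1C1 and AKR1C2 are near-identical and can exchange reads. AKR1C2 also fell in the other 3 lines (log2 change -1.88 ± 0.22, edgeR adjusted p = 0.013, and 0.067 without H1703). In H1703 it had only 9 treated and 28 untreated counts. AKR1C1 and AKR1C3 were not called across the other 3 lines (edgeR adjusted p = 0.18 and 0.23).
HMOX1, heme oxygenase, had 166 treated and 825 untreated counts, a ratio of 0.22 (0.185 to 0.261), and TKT, transketolase of the pentose phosphate pathway, had 2673 and 7242, a ratio of 0.404 (0.386 to 0.422). ALDH1A1, a retinal dehydrogenase and one of the most abundant transcripts of the line, had 18569 and 25191 counts, a ratio of 0.807 (0.792 to 0.822), and NQO1 had 7331 and 12721, a ratio of 0.631 (0.613 to 0.649). SRXN1, sulfiredoxin, was the higher member, with 7484 and 3558 counts.

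Cytosolic heat shock genes, another list drawn up after values were seen, were lower too. Of 16 measured, 8 were lower past 2-fold and 0 higher (median log2 ratio -1.07). HSPA1A, an inducible HSP70, had 165 treated and 1644 untreated counts, a ratio of 0.11 (0.093 to 0.129), and shares reads with its near copy HSPA1B (47 and 371). HSP90AA1, an HSP90, had 11608 and 35851, a ratio of 0.354 (0.347 to 0.362). The list medians of A375, A498 and H1703 were -0.49, -0.60 and 0.02. Immediate early genes, chosen in the same way, split into 5 higher (27.8%) and 3 lower (16.7%) of 18. Of all measured genes, 6.15% were higher and 8.27% lower. DUSP5, a nuclear phosphatase of ERK, had 1732 and 275 counts (ratio 6.89, interval 6.07 to 7.86) and FOSB 27 and 227.
Of the S100 calcium-binding proteins, also listed after values were seen, S100A10 had 2076 treated and 8515 untreated counts, a ratio of 0.267 (0.254 to 0.28), and S100A4 had 807 and 4415, a ratio of 0.2 (0.185 to 0.216). S100P was higher, with 1844 and 261 counts, a ratio of 7.73 (6.79 to 8.84). FGFR1, a growth factor receptor, had 905 treated and 3196 untreated counts in 549, a ratio of 0.31 (0.288 to 0.334), while in each of the other lines treated exceeded untreated (307 and 216, 1747 and 920, 3462 and 2270).

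Most cell cycle and lipid synthesis genes lay within 2-fold, and those past it were lower. Of 38 S and G2/M cell cycle genes, 10 were lower past 2-fold (26.3%, against 8.27% of all measured genes) and 0 higher. A negative log2 ratio was seen in 36 of 38 (median -0.68), against 5962 of 11818 measured genes. RRM1 and RRM2, subunits of the enzyme that makes deoxynucleotides, had 742 treated and 2091 untreated counts and 338 and 944. MKI67 had 1940 and 3912 counts, a ratio of 0.543 (0.514 to 0.573), and TOP2A 10335 and 17005, a ratio of 0.665 (0.649 to 0.682). CDKN2C, an inhibitor of CDK4 and CDK6, was lower at 10 and 111 counts, and CDKN1A (p21) was at 750 and 467, a ratio of 1.76 (1.56 to 1.98).
Of 22 cholesterol synthesis genes, 7 were lower (31.8%, against 8.27% of all measured genes) and 0 higher (median -0.81). DHCR7 had 45 treated and 180 untreated counts and EBP 180 and 607. Of 10 fatty acid synthesis genes, 2 were lower (20%, against 8.27% of all measured genes) and 8 lay within 2-fold (median -0.50). The lowest was SCD, the desaturase that makes oleate, with 694 and 2992 counts, a ratio of 0.254 (0.233 to 0.276). Of 23 p53 targets, 7 were higher (30.4%, against 6.15% of all measured genes). Among them were MDM2, the ubiquitin ligase of p53, with 1953 and 668 counts, a ratio of 3.2 (2.93 to 3.5), and GADD45A with 1290 and 241. The cell cycle medians of A375, A498 and H1703 were -1.32, -0.41 and -0.01. Across those 3 lines edgeR called 0 of the 38 cell cycle genes and 0 of the 23 tested cholesterol genes, all with adjusted p of 0.28 or more. Since it called 0.0222% of all genes lower, these counts show nothing about the lists.

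Of 13 measured epithelial state genes, 0 were higher past 2-fold and 3 were lower, and of 15 mesenchymal state genes, 3 were higher and 0 lower, against 6.15% higher and 8.27% lower of all measured genes. The medians were near 0, at -0.30 and 0.14 on the log2 scale. VIM, vimentin, had 4930 treated and 4906 untreated counts, and CDH1 was at a ratio of 0.751 (0.675 to 0.835). The lower epithelial genes were JUP, plakoglobin of junctions, with 160 treated and 779 untreated counts, EPCAM, an adhesion molecule, with 13 and 108, and CD24, a surface glycoprotein, with 1288 and 3979. Among the higher mesenchymal genes, ACTA2, smooth muscle actin, had 250 and 109 counts and CYR61, a matricellular protein, 860 and 422. The airway mucin MUC5AC had 1565 treated and 539 untreated counts, a ratio of 3.18 (2.88 to 3.51), and AGR2, a chaperone of mucins, had 241 and 604. Of 20 HIF target genes 2 were higher and 2 lower, of 20 collagen and integrin genes 1 was higher and 4 lower, and of 26 respiratory chain genes 1 was lower. In the HIF, collagen and integrin, and respiratory chain lists, these shares were near or under those of all measured genes. The exception was the lower collagen and integrin genes (20%). The lower epithelial (23.1%) and higher mesenchymal (20%) shares were above those of all measured genes. Log2 ratios were negative for 16 of 20 HIF targets (median -0.57), 14 of 20 collagen and integrin genes (-0.25) and 23 of 26 respiratory chain genes (-0.34). Of 16 housekeeping genes 1, SDHA, was lower past 2-fold, while GAPDH had 23879 and 41684 counts, a ratio of 0.627 (0.617 to 0.637), and ACTB 9259 and 7821.

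**Figure D4:**
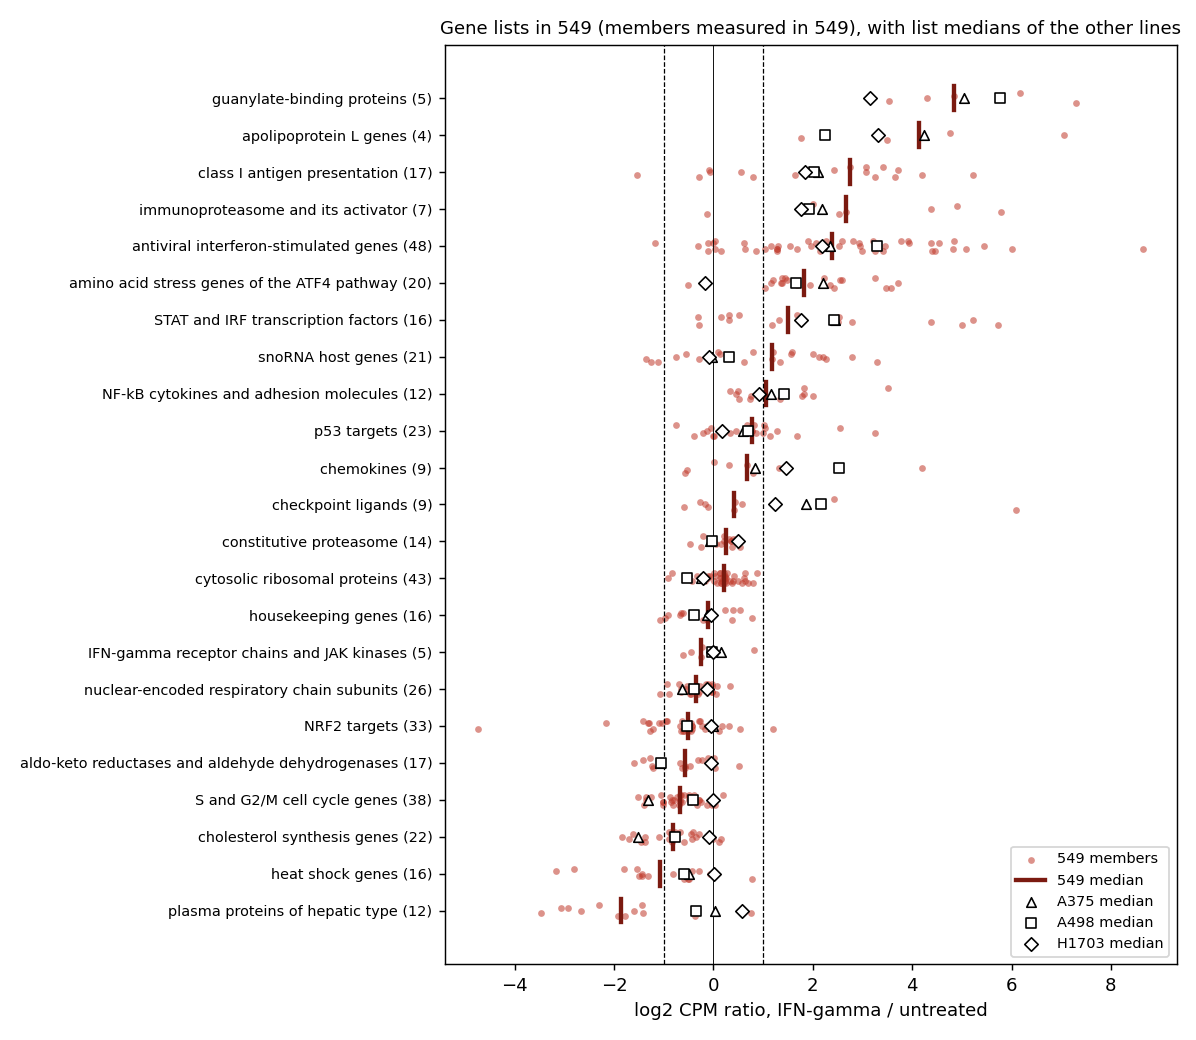
Log2 ratio, treated over untreated, of the measured members of 23 gene lists in 549 (points), with the 549 median (bar) and dashed lines at 2-fold. Symbols give the medians of A375, A498 and H1703 over the same members. Guanylate-binding proteins stand highest in 549 (median 4.84) and plasma proteins of hepatic type lowest (-1.85).

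The other 3 lines give a measure that the 549 libraries did not enter. Across A375, A498 and H1703, edgeR with cell line as a term called 150 of 13490 genes higher (1.11%) and 3 lower (0.0222%) with IFN-gamma. Of these, 118 of 11366 tested genes that were measured in 549 were called higher (1.04%). In 549, 96 of the 118 (81.4%) were higher past 2-fold, 22 lay within 2-fold and 0 were lower, set against 6.15% of all measured genes. From the other side, the 96 were 13.8% of the 694 tested genes that were higher in 549. The median of the 118 was 2.53 on the log2 scale in 549 and 2.61 in the other 3 lines. The count depends on H1703, without which 69 genes were called and 60 of them were higher in 549, and on A375, without which 177 were called and 130 were higher. It depends on the tool as well. DESeq2 called 303 genes higher, of which 191 (63%) were higher and 1 was lower in 549.
The largest ratios overlapped most. Of 64 tested genes at a log2 ratio of at least 3 in 549, 46 were called higher elsewhere. The lower side did not overlap in the same way, as 803 of the genes lower in 549 were tested and 2 were called lower, and of 94 tested genes at a log2 ratio of -2 or less, 0 were called lower. Only 3 genes were called lower at all by edgeR, which limits what this overlap can show. By DESeq2, 55 genes measured in 549 were called lower, and 26 of them were lower in 549 too.

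**Figure D5:**
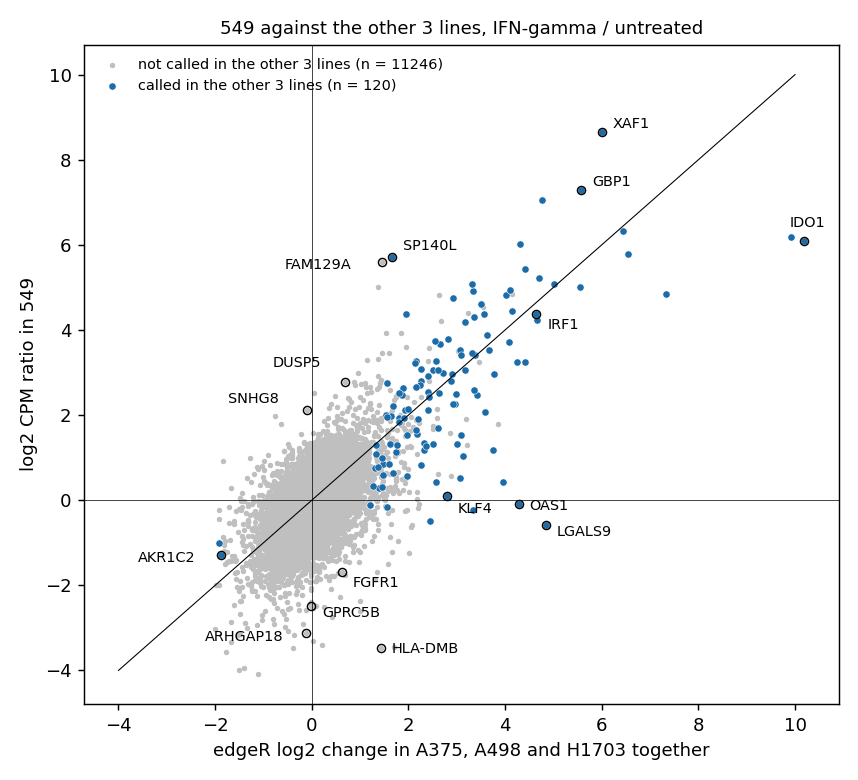
Log2 ratio in 549 (vertical axis) against the log2 change across A375, A498 and H1703 by edgeR (horizontal axis) for 11366 genes, with the 120 genes called in those lines in blue and the line of equality drawn. Most blue points lie above 1 on the 549 axis (96 of the 118 called higher), and OAS1 lies far below the line at -0.10 against 4.28.

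The 22 genes called in the other lines but within 2-fold in 549 included several steps of the pathway. They were JAK2, OAS1, EIF2AK2 (the kinase PKR), MOV10 (an antiviral RNA helicase), TAPBP (tapasin, 981 treated and 620 untreated counts), BATF3, NUB1, FAS, RIPK2, LGALS9, CEACAM1, AREG, FST, CLDN1, KLF4, SCN9A, SLC15A3, PLEKHF1, UAP1, BACH1, EHD1 and NUAK2. Several lay close to the threshold in 549, with log2 ratios of 0.76 to 1.00 for MOV10, TAPBP, JAK2, EIF2AK2, NUB1 and FAS, and FAS, at 80 and 43 counts, was just under 1 before rounding. Some of these calls were lost when a line was left out. The edgeR adjusted p was 0.11 without A498 and 0.061 without H1703 for JAK2, 0.2 and 0.11 for LGALS9, and 0.24 and 0.12 for FAS, whose log2 ratios were 1.40, 1.51 and 1.29 in A375, A498 and H1703. EIF2AK2 (0.15 and 0.11), TAPBP (0.073 and 0.1) and CLDN1 (0.12 and 0.089) were lost in the same way, and CEACAM1 was at 0.27 without A498. KLF4, a zinc finger factor of epithelia, did not. It had 41 treated and 42 untreated counts in 549, a ratio of 1.07 (0.678 to 1.68), where A375 had 383 and 68, A498 471 and 60, and H1703 29 and 3 (edgeR adjusted p = 0.005 across those lines, held without each line). SCN9A, a sodium channel, had 519 and 666 counts in 549.
A further 32 genes called in the other lines had fewer than 50 counts in 549, 19 of them with 0 in the untreated library, and these included CIITA, HLA-DRA, CXCL9, CXCL10, CD274, PDCD1LG2, SOCS1, CASP1, RSAD2 and SERPING1. Of those named, 5 lost the call when a line was left out. Without A498 the edgeR adjusted p was 0.14 for CXCL9, 0.14 for SOCS1 and 0.11 for PDCD1LG2, and CIITA was not tested. Without H1703 it was 0.1 for CXCL10, 0.055 for SOCS1, 0.1 for PDCD1LG2 and 0.075 for CIITA. In 549, CD274 had 37 treated and 5 untreated counts, SERPING1, the C1 inhibitor, 30 and 5, and the RNA sensor TLR3 28 and 4. CD82, a tetraspanin, went the other way with 3 and 30. Counts this low leave wide intervals in 549 at this depth.

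Whether 549 responded differently from the other lines was tested gene by gene as an interaction across all 8 libraries. EdgeR called 0 of 13457 genes (0%), with 485 at an unadjusted p under 0.05 and a smallest adjusted p of 0.67, and limma-voom also called 0. DESeq2 called 9. In that fit OAS1 (-4.39), HLA-DMB (-5.24), CD82 (-4.89), ARHGAP18 (-3.05) and FGFR1 (-2.33) had a lower log2 change in 549, and SP140L (4.95), FAM129A (4.22), SNHG8 (2.21) and DUSP5 (2.09) a higher one. Apart from OAS1, adjusted p of these genes in DESeq2 lay between 0.0083 and 0.049. With 1 pair of 549 libraries, which is assumed to vary like the other lines, these differences rest on 2 residual degrees of freedom, and edgeR's result does not show that 549 and the other lines responded alike.
PSMB8 was among the genes with the smallest unadjusted p in which 549 was higher. Its counts were 1298 treated and 67 untreated in 549, where A375 had 1222 and 305, A498 1925 and 702, and H1703 2713 and 463, an edgeR interaction of 2.45 ± 0.53 on the log2 scale (adjusted p = 1). PSMB8 has an antisense neighbour, and reads of the pair cannot be told apart without strand. PTGES, the prostaglandin E synthase, had 78 treated and 22.6 untreated CPM in 549, a ratio of 3.45 (2.88 to 4.15), while by counts treated was below untreated in A375 (397 and 787) and A498 (606 and 855). As a description across 9961 genes measured in all 4 lines, which are not independent, the log2 ratios of 549 correlated at Pearson's 0.57 with A375, 0.57 with A498 and 0.44 with H1703, and at Spearman's 0.47, 0.46 and 0.23. By the rule of 2-fold and 50 counts applied to each line, A375 had 1291 genes higher and 1202 lower, A498 had 1210 and 683, and H1703 had 294 and 74.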

How the data were processed

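Gene expression was read by RNA sequencing in 549 and 3 further cancer lines, each with 1 library after IFN-gamma (20 ng/ml, 72 h) and 1 untreated. TRIzol was used for the RNA, per the labels' protocols, which mention SMARTer stranded poly(A) chemistry as well as QuantSeq 3′ FWD. Which of them applies could not be settled. The submitters' processing notes list Bowtie2, edgeR and the build hg19, without versions. For the annotation, counting tool and strand setting the entry is "not given in the sources used here", so overlapping genes and near-identical copies are uncertain. The deposited table holds, per the file headers, the authors' raw counts per gene and their normalized log2 values. These log2 values follow the log2 of count times a library factor, plus 1 (factors 1.184 for treated and 1.105 for untreated 549). They served in 1 alternative only. The 25737 rows were summed to 24462 symbols, which affects 286 symbols. The number of per-sample columns left unused was 0.

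Counts were scaled by TMM over the 8 libraries (factors 0.9729 for treated and 0.9992 for untreated 549). Log2 ratios used a prior count of 2, and ratios carry exact Clopper-Pearson 95% intervals, which cover counting error only. Where the untreated count was 0, the fold was bounded from below by setting it to 3 counts. The other 3 lines and the interaction with 549 were tested with edgeR 4.0.16 in R 4.3.3 (glmQLFit and glmQLFTest, filterByExpr with a minimum count of 10 and total of 15, cell line as a term, Benjamini-Hochberg adjustment at 0.05, 2 residual degrees of freedom), beside DESeq2 1.42.0 and limma 3.58.1. Lines stand as replicates, so p-values measure the spread between lines. Gene names in the text follow this rule: the 15 highest and 12 lowest ratios among genes with at least 200 counts, up to 4 members of each list, a fixed set of interferon and lung line genes, up to 6 genes in each direction by interaction p, and the 10 genes with most counts in untreated 549. Other genes were named after their values were seen, and so were further list members. The members and lists were chosen with earlier results of these data known. The lists of snoRNA hosts, hepatic plasma proteins, heat shock, immediate early and S100 genes were added after values were seen. List medians of every line were taken over the members measured in 549. A list of mitochondrially encoded genes had 0 members in the table. The fits were tested on simulated data. Promoter sequences are from RefSeq (GRCh38.p14), matched by symbol. Results for a few genes are not reported here.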

Additional observations from a re-analysis of the deposited data

Results flagged for a closer look

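HLA-DMB stood out because its direction in 549 was opposite to that in every other line. Its log2 ratio was -3.47 in 549 (6 treated and 91 untreated counts), against 1.55 in A375, 1.05 in A498 and 1.20 in H1703. The edgeR interaction was -5.19 on the log2 scale with an adjusted p of 0.67, which is no call, and DESeq2 gave an adjusted p of 0.011 (range over the alternatives 0.011 to 1).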

How the results depend on the processing

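Counting only genes whose interval lay wholly past 2-fold left 393 genes higher and 443 lower in 549. Other scalings, prior counts, count minimums and the authors' log2 values gave 626 to 890 higher and 705 to 1296 lower, and upper quartile scaling gave 37.6% of calls higher, against 42.7% with TMM, and a median of all genes of -0.061. Of 62 single gene values under 6 alternatives, 357 stayed within their counting interval and 15 moved beyond it, with 0 reversed. Of 40 list medians, 238 values stayed and 2 moved, namely class I antigen presentation to 2.54 with a prior count of 5 and ribosomal proteins to 0.15 with upper quartile scaling, and the sign of 1 median near 0, that of endoplasmic reticulum chaperones, changed. In the other 3 lines, the 153 calls became 474 with no filter, 439 with DESeq2 and 0 with no cell line term (285 at an unadjusted p under 0.05), and leaving out 1 line gave 88 to 248. Of 102 named genes called there, 49 kept the call without each line in turn. The interaction gave 9 calls by DESeq2 and 0 to 1 when a line was left out, the 1 call without A375 being OAS1. The cause of these differences was not tested. The cell line term already pairs the treated and untreated library of each line, and no other pairing is given by the labels. Depth limits genes under 50 counts, among them most class II genes and some chemokine and checkpoint genes.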
